A study of Homo sapiens with 8 samples.

Results

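Input DNA from cells depleted of NuMA was compared with input DNA from undepleted cells. The members are 4 of the 8 libraries of the genomic DNA experiment, 2 WT inputs and 2 KD inputs, chosen by their labels and not by any measured value. All libraries came from RPE1, a human cell line derived from the retinal pigment epithelium and immortalised with telomerase. The WT cells received no doxycycline. The KD cells were taken after doxycycline and are labelled as a knockdown of NuMA, which the labels also call TDIF. Doxycycline and depletion therefore cannot be told apart. The dose and duration of doxycycline, the construct behind the knockdown and whether the cells were 1 clone were not stated in the labels. DNA was extracted with a commercial blood and tissue kit, and libraries were made as for chromatin immunoprecipitation. The other 4 libraries are OGAP libraries, in which fragments with oxidative base damage are pulled down. They enter here as part of a shared model and in the closing comparison. The labels leave unsaid whether replicate libraries are separate cultures, so p-values here measure only library-to-library spread, which may be technical.

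An input library is sequenced from the same sheared DNA as a pull-down, without the pull-down step. Its read density follows the number of copies of each region, and it is also shaped by how easily DNA breaks, by base composition during amplification and by how uniquely reads map. Peaks and damage levels are read against it, so a difference between inputs passes into every pull-down ratio. NuMA, encoded by NUMA1, is a large coiled-coil protein of the interphase nucleus that gathers at spindle poles in mitosis and binds dynein-dynactin. Errors of the spindle can change chromosome number, which an input library records as more or fewer reads along a chromosome.

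Reads were counted in 19957 promoter windows, each centred on a gene start, on the human build hg38. Window reads totalled 727901 in WT input 1, 771138 in WT input 2, 683567 in KD input 1 and 645276 in KD input 2. Medians per window were 37, 38, 35 and 33 reads in that order. A total of 590 windows had no read in any input. Windows that overlap another window (3741 of 19957) held a median of 3 reads in each input, against 36 to 43 reads in windows that overlap none, and are named as uncertain. A unique gene name could be given to 15657 windows, by RefSeq gene starts within 500 bp of the centre.

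WT input 2 stood apart from the other 3 inputs in coverage, base composition and mitochondrial share. Its coverage at gene starts, in exons and in GC-rich promoters was the highest of the 4, and its mitochondrial share was the lowest. The other WT library, WT input 1, lay close to KD input 1 in the same measures. Over windows, the chi-square per degree of freedom between libraries was 2.07 for the WT pair and 1.91 for the KD pair. For the 4 pairs of a WT and a KD library it ran from 1.91 to 2.25. By this measure libraries of the same group were about as far apart as libraries of different groups, and no pair agreed within sampling noise. The correlation of log2 scaled reads over 15712 windows did not set WT input 2 apart. It was highest for the WT pair (0.63) and lowest for the KD pair (0.51). With KD input 1 and KD input 2 it was 0.61 and 0.55 for WT input 2, against 0.57 and 0.52 for WT input 1. Values without WT input 2 are given beside the coverage, composition, density and bin results. They are not given for the shares of whole chromosomes, the segments of chromosome 10 or the number of promoters in lower and higher bins.

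Promoter sequences show how widely base composition ranges between windows. Single windows such as these do not show a trend between the inputs. The 250 bases before the start of 5 genes are printed 5′ to 3′ on the gene's strand, from RefSeq (GRCh38.p14), with CpG dinucleotides in capitals. UGT2B10 and OR5T3 are among the windows with more KD input reads, CMYA5 and GRIK4 have the lowest p for fewer KD reads among uniquely named windows that overlap no other and have at least the median count, and ANKRD60 is a GC-rich window with more. UGT2B10 and OR5T3 were chosen after their values were seen.
UGT2B10: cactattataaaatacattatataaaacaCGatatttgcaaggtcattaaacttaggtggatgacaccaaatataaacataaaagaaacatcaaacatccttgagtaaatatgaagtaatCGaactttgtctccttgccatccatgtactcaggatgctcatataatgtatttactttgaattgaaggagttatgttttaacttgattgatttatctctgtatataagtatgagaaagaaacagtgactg
OR5T3: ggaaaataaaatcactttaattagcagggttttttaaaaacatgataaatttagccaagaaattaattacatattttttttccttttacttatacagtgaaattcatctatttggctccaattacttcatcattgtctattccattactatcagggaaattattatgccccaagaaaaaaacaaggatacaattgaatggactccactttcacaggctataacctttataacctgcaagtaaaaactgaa
CMYA5: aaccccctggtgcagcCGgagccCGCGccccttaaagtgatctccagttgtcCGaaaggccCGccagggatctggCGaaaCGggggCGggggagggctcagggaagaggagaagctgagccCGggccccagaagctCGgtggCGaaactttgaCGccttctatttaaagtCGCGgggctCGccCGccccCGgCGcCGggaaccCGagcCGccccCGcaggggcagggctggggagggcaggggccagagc
GRIK4: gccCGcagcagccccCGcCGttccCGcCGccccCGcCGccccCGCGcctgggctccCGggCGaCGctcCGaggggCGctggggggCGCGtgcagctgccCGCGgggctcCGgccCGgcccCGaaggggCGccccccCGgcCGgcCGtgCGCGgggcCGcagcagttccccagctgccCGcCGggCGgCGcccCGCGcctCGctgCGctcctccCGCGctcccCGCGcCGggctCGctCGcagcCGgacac
ANKRD60: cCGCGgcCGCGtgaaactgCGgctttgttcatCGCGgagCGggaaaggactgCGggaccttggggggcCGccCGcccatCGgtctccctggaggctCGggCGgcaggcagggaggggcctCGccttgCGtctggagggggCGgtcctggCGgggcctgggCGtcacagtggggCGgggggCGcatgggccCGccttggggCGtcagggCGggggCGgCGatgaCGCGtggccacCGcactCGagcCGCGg
The stretches lie at chr4:68815744-68815993 on the plus strand (UGT2B10), chr11:56252004-56252253 on the plus strand (OR5T3), chr5:79689586-79689835 on the plus strand (CMYA5), chr11:120511498-120511747 on the plus strand (GRIK4) and chr20:58228654-58228903 on the minus strand (ANKRD60). UGT2B10 holds 2 CpG and OR5T3 holds 0, while CMYA5 holds 22, GRIK4 44 and ANKRD60 32. Their GC content is 29.6%, 28.8%, 70.4%, 86.8% and 76.8% in that order. Among the 12187 windows with a promoter sequence, the motif CG, which reads the same on both strands, was found in 97.2% of these 250-base stretches, with a median of 18 per stretch, and 20.6% of them held 5 or fewer.

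No promoter window passed the test between KD and WT input. In edgeR's quasi-likelihood test with Benjamini-Hochberg adjustment, 0 of 17130 tested windows passed an adjusted p of 0.05 (0% called), and the smallest adjusted p was 0.999. At an unadjusted p under 0.05 there were 756 windows (4.41%), of which 392 were higher in KD (2.29%) and 364 lower (2.12%). DESeq2 also called 0 windows, with 212 at an unadjusted p under 0.05. The median log2 change was -0.01, and 98.5% of windows lay within 1 log2 unit of 0. Both KD values lay above both WT values in 3100 windows (18.1%) and below them in 2870 (16.8%).

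The precision of a single window was limited. The median standard error of a log2 change was 0.35, and the smallest change that reached an unadjusted p under 0.05 was 0.56. A change of 1 log2 unit or more was fitted in 259 windows, whose median was 15 reads, against 39.75 reads over all tested windows. The common biological coefficient of variation, the spread between libraries beyond counting error, was 0.178. It was estimated over all 8 libraries, so the spread of the OGAP libraries enters it. Smaller differences at single promoters were not detectable with this depth and this spread between libraries.

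**Figure D1:**
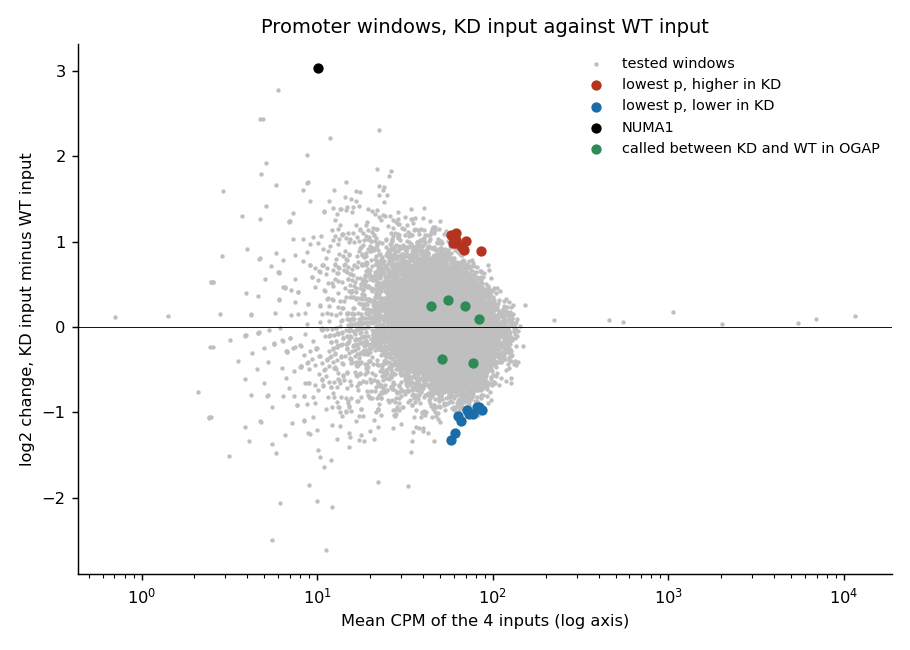
Each point is 1 of 17130 tested promoter windows, with its mean CPM (window reads scaled to a common library total) over the 4 inputs on a log axis and its log2 change, KD input minus WT input, on the vertical axis. Colours mark NUMA1, the 10 named windows of lowest p in each direction and the 6 windows called between KD and WT in OGAP; the scatter widens as reads become fewer, and 0 windows passed the test.

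The window of NUMA1 itself, at chr11:72079694-72081694 on the minus strand, held 2 and 1 reads in the WT inputs and 8 and 16 in the KD inputs. The groups did not overlap. From 3 WT reads and 24 KD reads the ratio per total window reads was 9.02, with an exact 95% counting interval of 2.74 to 46.8, which covers counting error only. The fitted log2 change was 3.03 ± 0.97 (SE, n = 2 per group), with an adjusted p of 0.999 by edgeR. This window overlaps that of ENSG00000184154 on the other strand, which held 8 and 6 WT reads and 2 and 7 KD reads. A DNA window says nothing of how much NuMA protein was present, so it does not check the depletion.

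Among windows with at least the median count, a unique name and no overlap, the 10 of lowest p with more KD reads had log2 changes from 0.89 to 1.10. ANKRD60, an ankyrin-repeat gene at chr20:58227654-58229654, had 30 and 28 reads in WT and 59 and 53 in KD, a change of 1.10 ± 0.35. The window of CA9, the hypoxia-induced carbonic anhydrase IX, had 40 and 49 reads in WT and 67 and 81 in KD (0.89 ± 0.29). In both windows the KD libraries lay above both WT libraries. APOE, which encodes a lipid-carrying apolipoprotein, had 33 and 38 against 62 and 57 reads (0.90 ± 0.31). FOXP3, the regulatory T cell transcription factor, had 24 and 37 against 44 and 64 (0.99 ± 0.34). The other members of this set were SHISA4, MYOCD (myocardin, a cofactor of smooth and cardiac muscle genes), MTIF3 (a mitochondrial translation initiation factor), PSD3, KCNK16 (a potassium channel) and TMC2 (a hair cell channel subunit). They cover unrelated functions, and their adjusted p was 0.999 throughout.

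Under the same limits on name, overlap and count, the 10 windows of lowest p with fewer KD reads had log2 changes from -0.94 to -1.33. CMYA5, a muscle gene at chr5:79688876-79690876, had 60 and 64 reads in WT and 24 and 20 in KD, a change of -1.33 ± 0.35. GRIK4, a kainate receptor subunit at chr11:120510758-120512758, had 58 and 70 reads in WT and 20 and 28 in KD (-1.25 ± 0.35). All 4 KD values lay below the WT values. SREBF1, which encodes a transcription factor of lipid synthesis, had 72 and 100 against 46 and 32 reads (-0.98 ± 0.30). HES5, a Notch target, had 60 and 81 against 27 and 37 (-0.97 ± 0.32). TRPM2, a cation channel opened by ADP-ribose, had 58 and 108 against 40 and 37 reads, and the WT libraries were farther apart than WT input 1 was from either KD library. PEF1, KCTD5, ASPG (an asparaginase), PUS1 (a pseudouridine synthase) and CFAP157 (a cilium-associated protein) complete the set, also at an adjusted p of 0.999.

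The lowest unadjusted p of all windows fell on UGT2B10, a glucuronosyltransferase of steroid and drug conjugation, with 5 and 6 WT reads and 24 and 26 KD reads (log2 change 2.31 ± 0.57, edgeR adjusted p 0.999). AQP12B, an aquaporin gene, had 32 and 46 WT reads and 10 and 9 KD reads (-1.86 ± 0.47). OR5T3, an olfactory receptor, had 6 and 11 against 33 and 22 (1.83 ± 0.55). All 3 were named after their values were seen, and all 3 belong to families of similar copies, between which reads may be split.

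Gene lists were described by counts and medians. None of the 1204 list windows tested passed the test in either direction. The median log2 change was -0.23 over the 32 immediate early genes, many of which code for fast-response transcription factors and phosphatases. Of these, 12 had both KD values below both WT values and 2 had both above, beside 16.8% and 18.1% of all windows. DUSP2 had 51 and 100 reads in WT and 49 and 32 in KD (-0.73 ± 0.32). JUND had 74 and 81 against 56 and 34 (-0.63 ± 0.31), and NR4A3 had 46 and 63 against 31 and 27 (-0.75 ± 0.35). JUND and NR4A3 did not overlap between groups. The list's median was -0.16 without WT input 2, -0.17 without WT input 1 and -0.10 without KD input 2. Its median read level was 67.3 CPM in WT input 1, 69.4 in WT input 2, 68.8 in KD input 1 and 60.4 in KD input 2. Only KD input 2 was thus low by this level. The 22 promoters with a sequence had a median GC content of 69.0%, against 63% over all tested windows with one.

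Olfactory receptors, a clustered family silent outside sensory neurons, had a median log2 change of 0.13 over 176 windows. Both KD values were above both WT values in 48 of them and below in 10, beside 18.1% and 16.8% of all tested windows. At an unadjusted p under 0.05, 9 were higher and 0 lower, beside 2.29% and 2.12% of all tested windows. Their median read level was 38.5 CPM in WT input 1, 31.1 in WT input 2, 38.0 in KD input 1 and 40.3 in KD input 2, so WT input 2 was low and the other 3 lay close together. Without WT input 2 the list's median was 0.08, and without WT input 1 it was 0.27. Their promoters, of which 141 had a sequence, had a median GC content of 35.3%. Taste receptors and defensins showed a median of 0.24 over 54 windows, and 0.08 without WT input 2. DEFB128 had 26 and 24 WT reads against 35 and 55 (1.01 ± 0.38), while DEFB115 had 60 and 42 against 22 and 20 (-1.12 ± 0.39), so members lay on both sides of 0.

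The medians of the other 20 lists lay between -0.15 (photoreceptor markers, 18 windows) and 0.16 (double-strand break repair, 11 windows). Some of them moved when a WT input was left out. The median of double-strand break repair was -0.01 without WT input 2 and 0.08 without WT input 1. That of retinal pigment epithelium markers went from -0.11 to 0.10 without WT input 2 and to -0.04 without WT input 1. Without WT input 2, neuronal synapse genes went from -0.02 to 0.19, while photoreceptor markers stayed at -0.15. Widely expressed genes had a median of -0.03 over 25 windows, with VIM, the intermediate filament vimentin, at 40 and 34 WT reads and 44 and 62 KD reads. Cytoplasmic ribosomal protein genes had -0.07 over 56 windows, where RPS15A was higher in both KD inputs (33 and 25 against 49 and 46) and RPL10A lower (66 and 86 against 51 and 33). Of 365 zinc finger genes, 63 had both KD values above and 63 both below, close to the shares of all tested windows (18.1% and 16.8%), with a median of -0.02. Base excision and single-strand break repair genes, which act on oxidative damage, had a median of -0.13 over 15 windows, none at an unadjusted p under 0.05. Of the 15, 6 overlap another window. PARP2, a sensor of strand breaks, had 25 and 26 WT reads and 34 and 37 KD reads. PARP3, in a window that overlaps another, had 12 and 22 against 7 and 10. Spindle and NuMA partner genes had a median of -0.06 over 19 windows. DCTN1, a dynactin subunit, had 41 and 39 against 18 and 26 reads (-0.70 ± 0.38). Retinal pigment epithelium markers had -0.11 over 17 windows, with TYR, the melanin enzyme tyrosinase, at 23 and 10 against 33 and 45 reads (1.39 ± 0.43). Of the 17, 11 had a change below 0, among them SLC16A8, a lactate transporter, at 82 and 104 against 53 and 58 reads (-0.58 ± 0.27), and MERTK, a receptor for engulfment of photoreceptor debris, at 48 and 73 against 28 and 42 (-0.62 ± 0.33). Such markers are present as DNA in every cell, so they do not check the cell type.

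**Figure D2:**
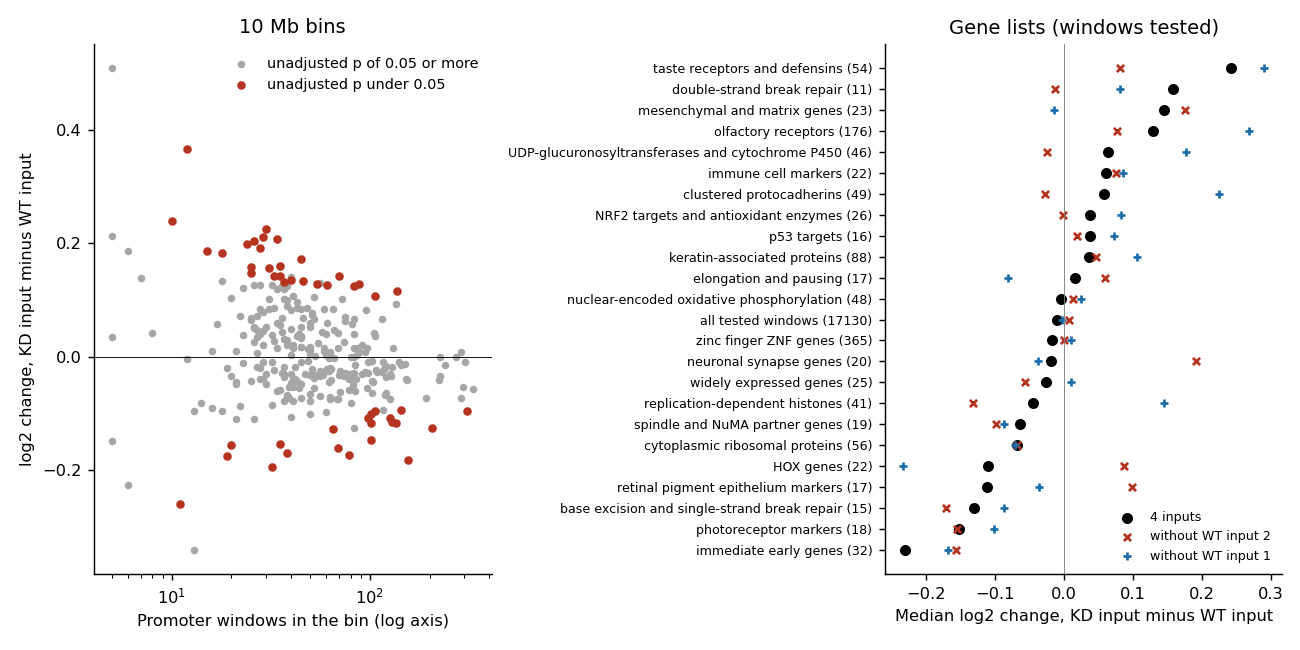
Left, the log2 change of each of 306 bins of 10 Mb, KD input minus WT input, against the number of promoter windows in it (log axis), with bins at an unadjusted p under 0.05 in red. Right, the median log2 change of each gene list with its number of tested windows, for all 4 inputs and without each WT library; for olfactory receptors it ran from 0.08 without WT input 2 to 0.27 without WT input 1.

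Mean coverage over the central 1000 positions around gene starts was lower in both KD inputs than in both WT inputs, by less than the WT libraries differed. The deposited profiles give summed coverage at 6000 positions around gene starts. Each was divided by its own mean over the outer 500 positions at each end. The central 1000 positions stood at 1.171 in WT input 1, 1.275 in WT input 2, 1.171 in KD input 1 and 1.125 in KD input 2. WT input 1 and KD input 1 differed by 0.00073. In the 250 positions before the start the groups overlapped, at 1.161 in WT input 1 and 1.255 in WT input 2 against 1.163 in KD input 1 and 1.120 in KD input 2. The difference of group means was -0.075, against 0.103 between the WT libraries. Means of 2 libraries vary less than single libraries, so these values are not like for like. The same holds for the base composition and density comparisons below. The exact two-sided permutation p was 0.333, the smallest that 2 libraries against 2 allow. Without WT input 2 the difference was -0.023. The summit was 1.254, 1.414, 1.246 and 1.180 times the outer level, at 116, 95, 151 and 211 positions after the start. Every input thus had a summit just inside the gene.

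**Figure D3:**
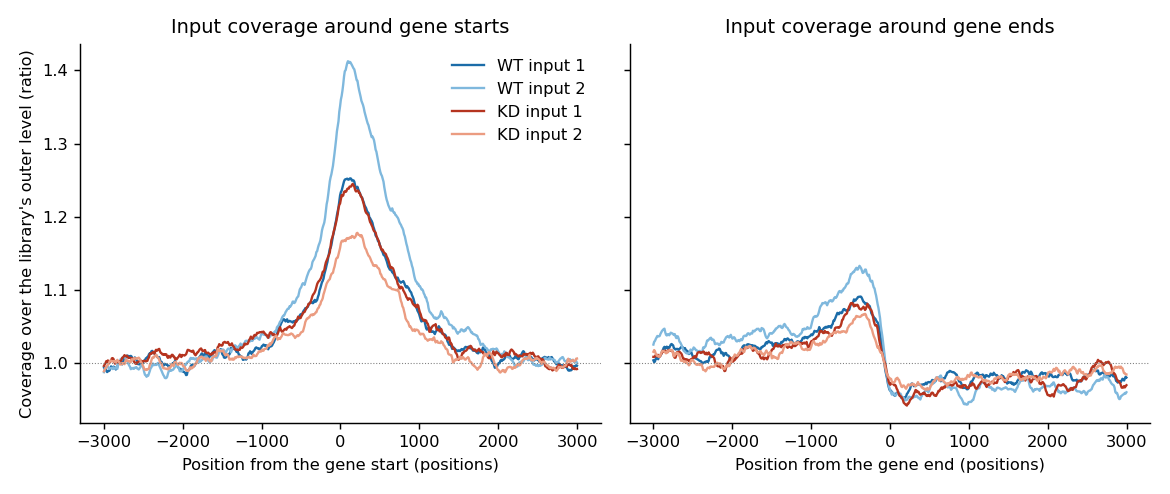
Summed coverage of the 4 inputs around gene starts and gene ends, each divided by its library's outer level (vertical axis, ratio), against the position from the start or end. WT input 2 rises to 1.414 at gene starts, WT input 1 and KD input 1 lie on each other near 1.25, and KD input 2 is lowest at 1.180.

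The same order of libraries appeared along the transcription unit. Exon coverage over flanking coverage was 1.091 in WT input 1, 1.136 in WT input 2, 1.087 in KD input 1 and 1.071 in KD input 2 (exact permutation p = 0.333). The first quintile of the exon bins stood higher than the last in each input, for example 1.205 against 1.074 in WT input 2 and 1.099 against 1.042 in KD input 2. Without WT input 2 the KD minus WT difference in exons went from -0.035 to -0.012. Around gene ends coverage stepped down in all 4 inputs. The 250 positions before the end stood at 1.029, 1.051, 1.026 and 1.015 and the 250 after it at 0.957, 0.956, 0.957 and 0.973, in the order WT input 1, WT input 2, KD input 1 and KD input 2. The mean over the central 1000 positions, which spans this step, was 1.010 and 1.022 in WT and 1.004 in both KD inputs. The KD minus WT difference of that mean was -0.012, or -0.0059 without WT input 2, and with the central 200 positions alone it turned to 0.007. WT input 2 was the highest library at starts, exons and ends when the central 1000 positions were used.

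Base composition separated the inputs in the same order. This describes only the 12187 windows with a RefSeq promoter sequence. They include 10670 of the 17130 tested windows (62.3%), too few for a check of all windows, which is void. From the lowest to the highest quintile of windows by promoter GC, mean CPM went from 40.8 to 59.6 in WT input 1 and from 36.3 to 64.5 in WT input 2. It went from 40.8 to 59.1 in KD input 1 and from 43.2 to 57.3 in KD input 2. The log2 ratio of highest to lowest quintile was 0.55, 0.83, 0.54 and 0.41, a KD minus WT difference of -0.22 against 0.29 between the WT libraries (exact permutation p = 0.333). Without WT input 2 the difference was -0.07. By CpG density the ratios were 0.31, 0.54, 0.31 and 0.21, a difference of -0.17, or -0.05 without WT input 2. WT input 1 and KD input 1 were again nearly equal, and the groups did not overlap.

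**Figure D4:**
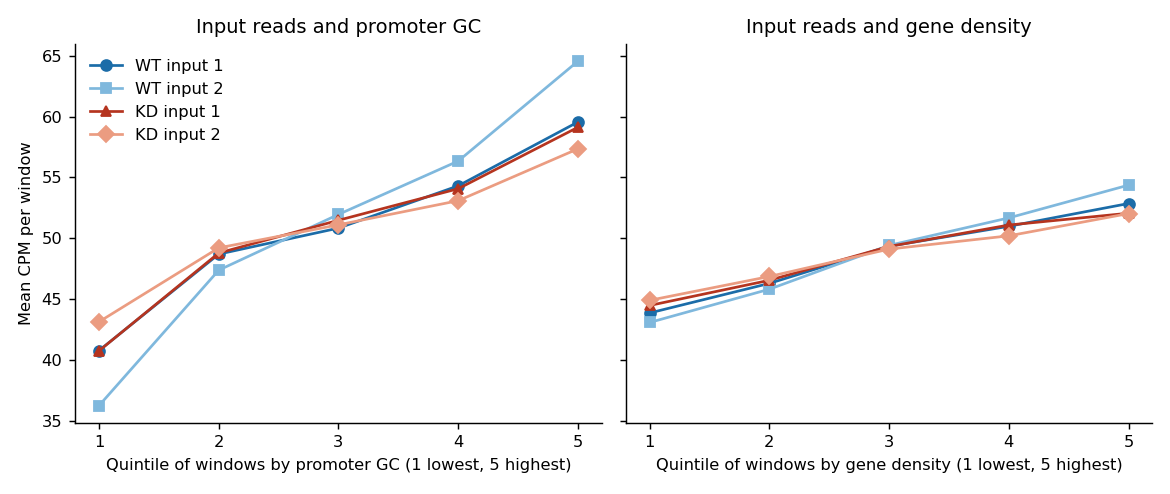
Mean CPM per window (vertical axis) in each input, over quintiles of windows by promoter GC content (left) and by the number of other windows within 1 Mb (right). All 4 lines rise, WT input 2 most steeply (36.3 to 64.5 by GC) and KD input 2 least (43.2 to 57.3).

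Windows in gene-dense regions held more reads in every input. The log2 ratio of the densest to the sparsest quintile, by other windows within 1 Mb, was 0.27 in WT input 1, 0.33 in WT input 2, 0.23 in KD input 1 and 0.21 in KD input 2. Here the difference of means (-0.082) was larger than the difference between the WT libraries (0.066), and the nearest WT and KD values were 0.042 apart. The exact permutation p was 0.333, the smallest possible, and without WT input 2 the difference was -0.049. Windows at an unadjusted p under 0.05 had a median of 27 neighbours within 1 Mb when lower in KD and 18 when higher, against 21 over all tested windows. Where they had a promoter sequence, the median GC content was 67.8% for the lower (234 windows) and 54.7% for the higher (242 windows).

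**Figure D5:**
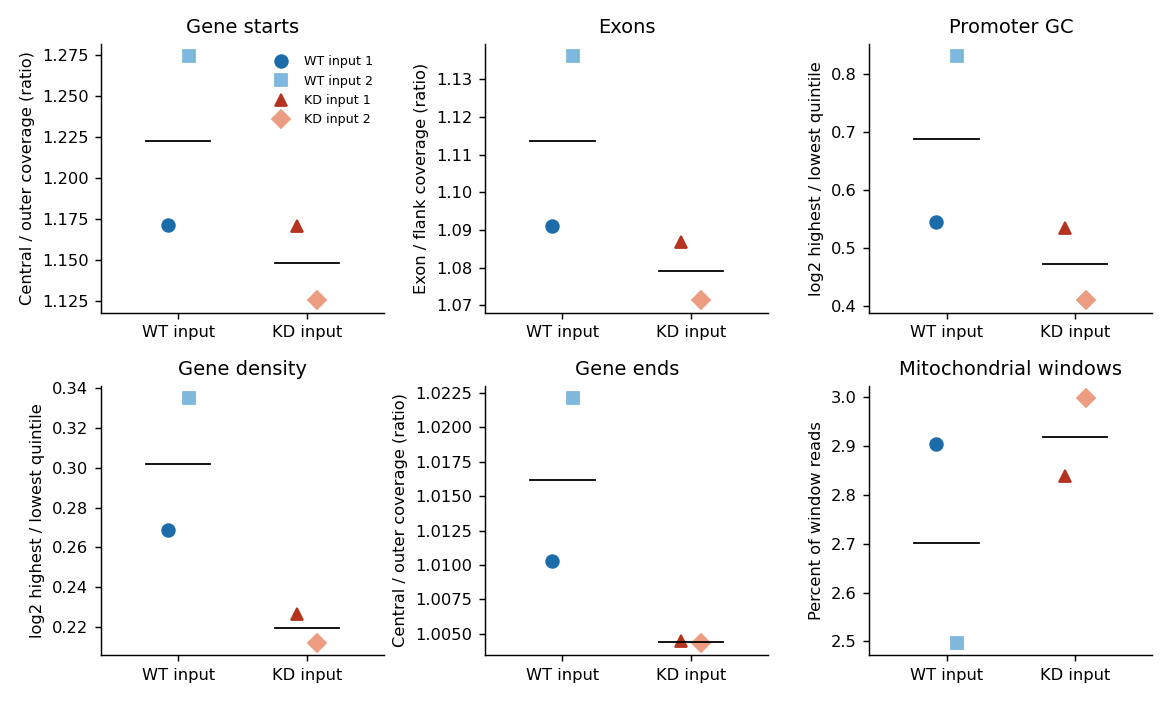
Each panel shows 1 measure in the 4 inputs (points) with group means (lines); axes do not start at 0. In each of the 6 panels WT input 2 is at one extreme and KD input 2 at the other, and of the 6 measures the groups overlap in the mitochondrial share alone.

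Regional sums were used to look for copy number differences. No bin of 10 Mb passed edgeR's quasi-likelihood test on the 4 inputs (0 of 306, 0% called, smallest adjusted p 0.266). At an unadjusted p under 0.05, 27 bins were higher in KD (8.82%) and 21 lower (6.86%). The median standard error was 0.056 log2 units, and 96.4% of bins changed by less than 0.2. Lower bins were rich in promoters, with a median of 101 windows, and higher bins poor, with 34, against 49.5 over all bins. Across the 306 bins, which share libraries, Pearson's r between log2 change and log2 windows per bin was -0.27, a description across regions of the same genomes.

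Bins of 20 Mb gave 9 calls of 162 (5.56% called), 3 higher and 6 lower in KD, all of them small. The most distinct was 120 to 140 Mb of chromosome 9, with 12662 and 14352 WT reads and 11355 and 10385 KD reads over 291 windows (log2 change -0.15 ± 0.04, adjusted p 0.00848). The bin at 60 to 80 Mb of chromosome 6, with 45 windows, changed by 0.18 ± 0.05 (adjusted p 0.0179). The called bin from 80 Mb of chromosome 17 held the same 78 windows and reads as the 10 Mb bin there. That 10 Mb bin changed by -0.17 ± 0.04 and was not called (edgeR adjusted p 0.266). Called bins from 240 Mb of chromosome 2 and 140 Mb of chromosome 8 also repeat the reads of uncalled 10 Mb bins, in which the groups overlapped. A call thus depended on the bin size and not on the reads alone. None of the 162 bins was called when any 1 of the 4 inputs was left out, with 7 to 29 at an unadjusted p under 0.05. Among bins of 10 Mb, 30 were called without WT input 1 (10 higher, 20 lower) and 0 without WT input 2, 1 without KD input 1 and 2 without KD input 2.

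By whole chromosome the inputs were close. The median absolute log2 difference in a chromosome's share of nuclear window reads was 0.018 between the KD and WT means. Between single libraries it was 0.024 for the WT pair and 0.018 for the KD pair. Means of 2 libraries vary less than single libraries, so these values are not like for like. Chromosome 22 had the largest difference, at 2.80% and 2.88% in WT and 2.74% and 2.64% in KD (log2 change -0.08). Chromosome X took 3.63% and 3.56% in WT and 3.73% and 3.74% in KD (0.05), and chromosome 6 took 4.75% and 4.60% against 4.76% and 4.91% (0.05). Over windows with a promoter sequence, median GC was 66.7% on chromosome 22, 60.3% on X and 60.7% on 6. It was 65.5% on chromosome 18, which was higher in both KD inputs. Whether base composition or copy number lay behind these differences was not tested. Of 23 chromosomes, 8 lay higher in both KD inputs and 5 lower. For these 13 the exact permutation p was 0.333, or 0.590 after Benjamini-Hochberg adjustment.

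The gain of distal 10q that RPE1 is known to carry was present in all 4 inputs. Above 60 Mb of chromosome 10, a split chosen after the values were seen, the mean reads per window relative to the other autosomes were 1.50 in WT input 1, 1.50 in WT input 2, 1.49 in KD input 1 and 1.51 in KD input 2 (418 windows). Below 60 Mb they were 0.87, 0.86, 0.85 and 0.89 (216 windows). The depleted and undepleted cells thus differed by -0.003 in the gained segment. The step from the segment below 60 Mb to the one above it was measurable in each library. It does not show how small a difference between KD and WT could be seen.

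Mitochondrial DNA made up 2.90% of window reads in WT input 1 (Wilson 95% interval 2.87 to 2.94), 2.50% in WT input 2 (2.46 to 2.53), 2.84% in KD input 1 (2.80 to 2.88) and 2.997% in KD input 2 (2.96 to 3.04). The intervals cover counting error only, since duplicate molecules cannot be recognised in these counts. The groups overlapped (exact permutation p = 0.667), and without WT input 2 the difference fell from 0.22 to 0.01 percentage points. Windows with the most reads were mitochondrial. The ND5 window, named for a complex I subunit, held 8667 and 7832 WT reads and 8151 and 8064 KD reads (0.13 ± 0.12), and COX1, a cytochrome c oxidase subunit, held 4085 and 3885 against 3729 and 3639 (0.04 ± 0.13). Each of these windows overlaps another mitochondrial window.

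Input values were last set beside the windows that differed between KD and WT in the OGAP libraries. In OGAP, 6 of 17130 windows passed the test (0.035% called). None of the 6 passed it in input, and the interaction of state and library type passed in 1 window (0.00584%), AKIRIN1. AKIRIN1, which encodes a nuclear cofactor, had 40 and 47 WT input reads and 28 and 32 KD input reads (log2 change -0.37 ± 0.37) at chr1:38990222-38992222, and changed by 3.23 ± 0.59 in OGAP. USP11, a deubiquitinase, had 77 and 55 against 39 and 49 input reads (-0.43 ± 0.25) and -0.91 ± 0.18 in OGAP. DHPS, deoxyhypusine synthase, had 48 and 47 against 44 and 57 input reads (0.25 ± 0.30) and changed by -1.46 ± 0.29 in OGAP. For USP11 and DHPS the input groups overlapped, while for AKIRIN1 both KD inputs lay below both WT inputs. NCF4, a subunit of the phagocyte oxidase, changed by 0.09 ± 0.28 in input, and the unnamed windows ENSG00000174145 and ENSG00000161813 by 0.32 ± 0.36 and 0.25 ± 0.34. Across all 17130 windows, Pearson's r between the KD minus WT changes in OGAP and in input was -0.01, a description across windows that are not independent.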

How the data were processed

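Genomic DNA of RPE1 cells was measured in 8 libraries, of which the 4 inputs were compared. The deposited counts are whole reads per promoter window. The deposited profiles are summed coverage (signal), whose scale is not given in the sources used here, so each was divided by its own outer level. Per the submitters' processing notes, BWA 0.7.17-r1188, bedtools, featureCounts and MACS2 were used on hg38. No step of library scaling is recorded.

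The window test was edgeR 4.0.16 under R 4.3.3 (TMM, filterByExpr, 4 group means over all 8 libraries, contrast KD input minus WT input), where the OGAP libraries lend degrees of freedom. SEs were derived from the F statistic. Bins of at least 5 windows and 10 reads in each input were tested on the inputs alone. Single values used exact permutation tests (SciPy 1.17.1). DESeq2 1.42.0, other scalings, filters, bin sizes and leaving out each library were alternatives. The tests were tried on simulated counts. Genes named are NUMA1, the 10 lowest p in each direction among uniquely named windows that overlap no other and have at least the median count, the 5 windows with most reads, windows called in OGAP and up to 4 members of each of 23 lists. The comparison, its lists and its rules were chosen with earlier results of these data known.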

Additional observations from a re-analysis of the deposited data

Results flagged for a closer look

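The KD minus WT change at the AKIRIN1 window differed between the OGAP and the input libraries by 3.60 ± 0.71 log2 units (interaction term, edgeR adjusted p 0.0303). It was the single such window of 17130 (0.00584%). In OGAP the change was 3.23 ± 0.59, and in input it was -0.37 ± 0.37, with 40 and 47 reads in WT and 28 and 32 in KD.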

How the results depend on the processing

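Promoter windows gave 0 calls under every alternative run, with 212 (DESeq2) to 953 (the 4 inputs alone) at an unadjusted p under 0.05. The smallest adjusted p was 0.0888, without WT input 1. The count of 10 Mb bins called was 1 with library totals alone, 9 with 20 Mb bins, and 0 to 30 with 1 input left out; the cause was not tested. The 20 Mb bins with 1 input left out, run after the data were seen, gave 0. Where a group was left with 1 library, that library was assumed to vary like the others. With the central 200 positions the gene end difference reversed to 0.0070. With 1 input left out, input changes ranged from -0.012 (without KD input 1) to 0.58 at ENSG00000174145, from -0.0014 (without WT input 2) to 0.54 at ENSG00000161813 and from -0.072 (without KD input 2) to 0.24 at NCF4. The HOX gene median moved from -0.11 to 0.09 without WT input 2, and the immediate early median from -0.23 to -0.10 without KD input 2. Whether same-numbered samples were paired is unknown. Deviations of same-numbered inputs correlated at -0.026, and the fit with a replicate block gave 0 calls in windows and in bins. Neither result can decide the question, since counting error at this depth could hide a pairing. With these libraries no window with a change under 0.56 log2 units reached even an unadjusted p of 0.05, and 2 libraries per group limit every exact test to 0.333.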
